A study of Mus musculus with 12 samples.

Results

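Annexins are proteins that bind membranes rich in acidic phospholipids when calcium rises. A set of 9 annexin genes was followed here in BL#19, a mouse line of Burkitt lymphoma, a tumour of germinal center B cells, in which the alleles of Foxo1 were edited with CRISPR/Cas9. Foxo1 encodes a forkhead transcription factor that AKT phosphorylation keeps out of the nucleus, and T24P is a substitution at a residue that AKT phosphorylates. The genes are Anxa10, Anxa1, Anxa2, Anxa3, Anxa4, Anxa5, Anxa6, Anxa7 and Anxa11, and all probe sets that the platform annotation gives to these symbols alone were read. These were 19 of 45101 probe sets and covered 8 of the 9 genes. The single probe set that lists Anxa11 also lists Gm2274 and Gm2260, so it was not named and Anxa11 is not analysed here. Anxa10 was chosen by its measured log2 change in cells that had lost both Foxo1 alleles, so its changes in those cells are given as a description with no test. The other genes belong to the set by name, although all were chosen with earlier results of these arrays known.

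The 4 genotypes had 3 arrays each. Cells labelled wt-/mt- had lost both the wild-type and the T24P allele, wt+/mt- cells had lost the T24P allele only, wt-/mt+ cells had lost the wild-type allele only, and wt+/mt+ cells kept both alleles. All derive from 1 tumour line, and the wt+/mt+ control cells carry the T24P allele too. In one field the samples are described as B cells of the germinal center. Whether the 3 arrays of a genotype come from different clones or cultures is not stated, and each genotype could be a single clone. The p-values compare differences between genotype means with the spread of arrays within genotypes, which may be only technical. They thus apply to these samples only.

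Annexins share a conserved core of repeats that holds the calcium sites and differ in the stretch before it, which binds partners such as S100 proteins. Annexin A5 binds phosphatidylserine on dying cells and is used to stain them, annexin A2 pairs with S100A10 at the plasma membrane, and annexin A1 acts in the resolution of inflammation. ANXA10 in humans is best known as a marker of gastric epithelium and is not a gene commonly associated with B cells.

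Anxa10 lies on chromosome 8 (62057042 to 62123193, GRCm38.p6, minus strand), Anxa4 on chromosome 6 (86736840 to 86793634, minus strand), and the other members on chromosomes 3 (Anxa5), 5 (Anxa3), 9 (Anxa2), 11 (Anxa6), 14 (Anxa7 and Anxa11) and 19 (Anxa1). RefSeq promoter windows of GRCm38.p6, each of 300 bases with 250 of them before a gene's start, were given for 7 of the 9 genes, with 9 windows in all. The sequences before Anxa10 and Anxa4 are shown, 5′ to 3′ on the gene's strand, because these are the 2 members with the largest increases in wt-/mt- cells. They come from chr8:62123194-62123443 and chr6:86793635-86793834. The second is shorter because another part of its window lies inside the annotated gene. Capitals mark matches to 3 forkhead-type motifs, the first spelled GTAAACA, the second spelled CAAAACA and the third spelled GTAAATA, searched on both strands and chosen after these sequences had been seen.
Anxa10: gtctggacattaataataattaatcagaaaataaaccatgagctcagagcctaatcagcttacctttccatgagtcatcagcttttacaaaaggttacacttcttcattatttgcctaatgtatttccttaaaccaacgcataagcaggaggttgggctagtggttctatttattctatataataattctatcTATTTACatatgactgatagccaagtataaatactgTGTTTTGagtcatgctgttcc
Anxa4: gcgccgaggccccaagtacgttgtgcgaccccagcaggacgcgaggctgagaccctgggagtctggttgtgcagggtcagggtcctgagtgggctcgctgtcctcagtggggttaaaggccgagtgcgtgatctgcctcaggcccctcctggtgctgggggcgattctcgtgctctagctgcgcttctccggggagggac

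The stretch before Anxa10 held the second motif, whose last base lay 15 bases from the gene's start, and the third, 51 bases from it, each as its reverse complement, and it did not hold the first. Among 32851 promoter windows of the same 300 bases, 3.65% held the first motif, 6.28% the second and 3.04% the third. No window of the other 6 members with a window held any of the 3 motifs. At these shares most windows hold none, and the motifs were chosen after the printed sequences had been seen, so this is no contrast with Anxa10. The Anxa10 window was poor in G and C (34.3%, against a median of 52.7% over all windows) and had 1 CG dinucleotide, where the median window had 7. A match of letters is not a bound site, and binding was not measured.

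Expression was read as RMA values, which are on the log2 scale, so a difference of 1 is a 2-fold change. Each gene was represented by its brightest probe set, and a gene was tested if this probe set exceeded the median of all probe sets on 3 or more of the 12 arrays. Of the members, 7 passed, while Anxa3 did not. Foxo1 itself stood at 9.99 ± 0.52 in wt-/mt- cells, at 11.87 ± 0.26 in wt+/mt- cells, at 11.46 ± 0.26 in wt-/mt+ cells and at 11.64 ± 0.08 in wt+/mt+ cells (log2, SD, n = 3 each). The arrays of wt-/mt- differed most from one another, with a median SD over genes of 0.261, while this SD was 0.133 for wt+/mt-, 0.111 for wt-/mt+ and 0.0952 for wt+/mt+, so each genotype received its own weight in the fit. The 6 mt- arrays also stood apart in spiked controls, with bioD between 12.97 and 13.52 and lys between 7.30 and 8.18, against 13.83 to 14.04 and 5.77 to 7.26 on the 6 mt+ arrays. Actin signal at the 3' end over that at the 5' end, a sign of RNA quality, reached 2.17 in wt+/mt- replicate 1 and 1.71 in replicate 2, and lay between 1.06 and 1.29 on the other 10 arrays. Of 8 B cell markers on the array, all 8 lay above the array's median on every array.

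Anxa10 was the gene with the largest increase of 11458 in wt-/mt- against wt+/mt+. Its brightest probe set, 1449426_a_at, read 14.17, 12.12 and 11.18 on the 3 wt-/mt- arrays, against 6.98, 7.46 and 7.50 on the wt+/mt+ arrays. The groups were far apart, and the wt-/mt- arrays were themselves spread over 3 log2 units, with replicate 1 highest. The means were 12.49 ± 1.53 in wt-/mt- and 7.31 ± 0.29 in wt+/mt+ (log2, SD, n = 3), a difference of 5.18 (limma SE 0.61), or 36.2-fold. The second probe set, 1430443_at, gave 10.72, 8.36 and 7.13 in wt-/mt-, against 4.50, 4.40 and 4.39 in wt+/mt+. Both probe sets thus ordered the wt-/mt- arrays the same way, and the second differed by 4.31. Without wt-/mt- replicate 1 the difference of the first probe set was 4.33, and without replicate 3 it was 5.83. In bulk RNA, a higher level in every cell and a larger share of cells with the transcript cannot be told apart.

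Against the cells that kept 1 allele, Anxa10 was higher in wt-/mt- by 3.69 over wt+/mt- (SE 0.64) and by 5.54 over wt-/mt+ (SE 0.62). These comparisons share the wt-/mt- arrays, and no test is given for them. The change on losing the T24P allele was 4.05 larger without the wild-type allele than with it (SE 0.70), which is a description for the same reason.

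**Figure D1:**
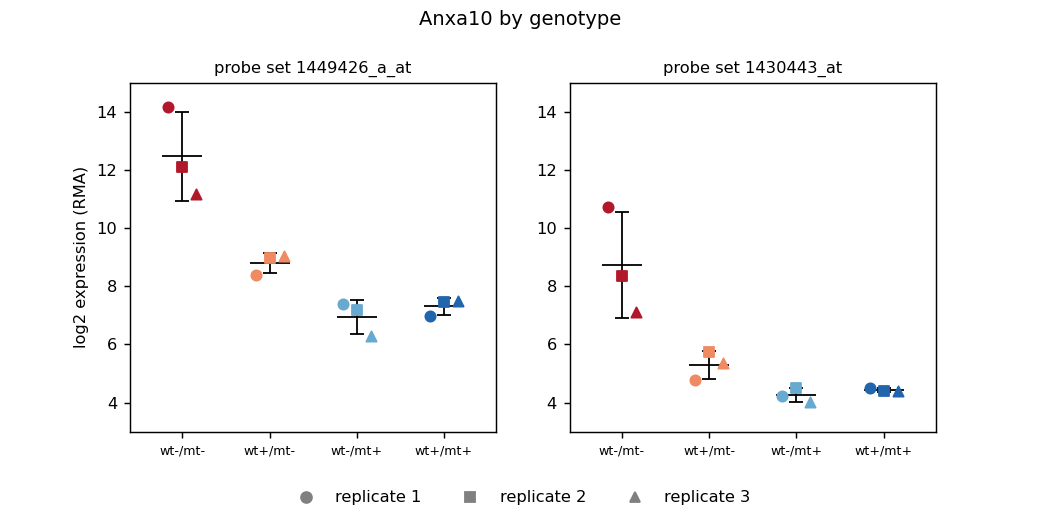
Log2 expression (RMA, y axis) of the 2 Anxa10 probe sets by genotype, with a point per array, the mean as a bar and the SD as whiskers (n = 3). The wt-/mt- arrays lie between 11.18 and 14.17 for 1449426_a_at, those of wt+/mt- between 8.39 and 9.05, and the 6 arrays with the T24P allele between 6.29 and 7.50.

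Anxa10 was also higher in wt+/mt- cells, which kept wild-type Foxo1 and lacked T24P. The brightest probe set read 8.39, 8.97 and 9.05 in wt+/mt-, against 6.98, 7.46 and 7.50 in wt+/mt+. The groups did not overlap, as for 21.8% of all tested genes in that direction. The difference was 1.49 (SE 0.34, limma adjusted p = 0.0251), or 2.81-fold, and ranked 12 from the top among 11458 genes. This comparison does not hold wt-/mt-. However, its wt+/mt+ and wt+/mt- arrays also entered the contrasts with wt-/mt- on which Anxa10 was picked, so its p is not independent of that choice. In it 8.29% of all genes were called (adjusted p under 0.05), 5.93% higher and 2.37% lower. The second probe set gave 4.78, 5.75 and 5.36 in wt+/mt-, against 4.50, 4.40 and 4.39 in wt+/mt+. Its arrays did not overlap either, but the change of 0.86 did not pass over all 34958 probe sets (adjusted p = 0.187). The call of the brightest probe set ended without wt+/mt- replicate 2 (1.41, adjusted p = 0.235), without wt+/mt+ replicate 2 (1.56, adjusted p = 0.0632) and with 1 shared spread for all genotypes (adjusted p = 0.269), and without wt+/mt- replicate 2 only 9 genes were called in all. With the actin ratio as a covariate the change was 1.69 (adjusted p = 0.0245). The spiked controls bioD and lys separated all mt- from all mt+ arrays, so their part cannot be told apart from loss of T24P and was not tested. The same holds for every comparison of mt- with mt+ arrays in this report.

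In wt-/mt+ cells, which have T24P alone, Anxa10 read 7.38, 7.17 and 6.29, against 6.98, 7.46 and 7.50 in wt+/mt+, and the change of -0.37 (SE 0.30, limma adjusted p = 0.599) did not pass. With T24P alone against wild-type Foxo1 alone (wt-/mt+ minus wt+/mt-) the change was -1.86 (SE 0.36, limma adjusted p = 0.0167), where 7.29% of genes were called, 2.94% higher and 4.35% lower. That call rests on the same wt+/mt- arrays. It ended without wt+/mt- replicate 2 (-1.77, adjusted p = 0.200), where 5 genes were called in all, and with 1 shared spread (adjusted p = 0.173). Arrays of every genotype entered the contrasts on which Anxa10 was picked, so these p-values are not independent of that choice. In order, Anxa10 was thus highest in wt-/mt-, then in wt+/mt-, and lowest in wt+/mt+ and wt-/mt+, whose arrays overlapped. The order of the means was the same for the second probe set.

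The 5 genes whose profiles over the 12 arrays were most like that of Anxa10 by Pearson's correlation were Nfya (r = 0.959), a subunit of the CCAAT-binding factor NF-Y, Kcnk5 (0.956), a potassium channel, Prcc (0.956), Nfkbid (0.951), a nuclear regulator of NF-kB, and Arrb2 (0.949), which encodes beta-arrestin 2. The arrays fall into groups and share the high wt-/mt- values, so these r describe the shared pattern and no p is given. The differences were smaller than that of Anxa10. Kcnk5 averaged 8.83 in wt-/mt- cells, 7.77 in wt+/mt- cells, 7.29 in wt-/mt+ cells and 7.35 in wt+/mt+ cells. Nfkbid averaged 9.53 in wt-/mt- cells, 8.58 in wt+/mt- cells, 7.96 in wt-/mt+ cells and 8.19 in wt+/mt+ cells. All 5 genes were highest on wt-/mt- replicate 1, among them Kcnk5 at 9.65 and Nfkbid at 10.46. The choice by correlation with Anxa10, itself highest there, favours this. Among the members, Anxa4 was most like Anxa10 (r = 0.919, rank 32 of 11457 genes), followed by Anxa7 (0.834) and Anxa6 (0.609).

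The tested genes nearest to Anxa10 on chromosome 8, all but Palld, gave negative changes in wt-/mt- against wt+/mt+, and none came near the size of the Anxa10 change. In that comparison 4.8% of all genes were called lower. Ddx60, an interferon-induced helicase gene 19 kb away, fell by 1.57 on the log2 scale in wt-/mt- against wt+/mt+ (SE 0.36, limma adjusted p = 0.0216). Palld, an actin-associated protein gene 154 kb away, gave 0.37 (adjusted p = 0.231), and Cbr4, a carbonyl reductase gene 554 kb away, gave -0.51 (adjusted p = 0.305). On the other side the nearest tested genes were over 2 megabases distant. Of these Klhl2 fell by 1.23 on the log2 scale (adjusted p = 0.0232), while Cpe at -0.93 and Msmo1 at -0.58 did not pass. The median of all 638 tested genes of chromosome 8, relative to wt+/mt+, was 0.05, 0.19 and -0.27 on wt-/mt- replicates 1, 2 and 3.

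**Figure D2:**
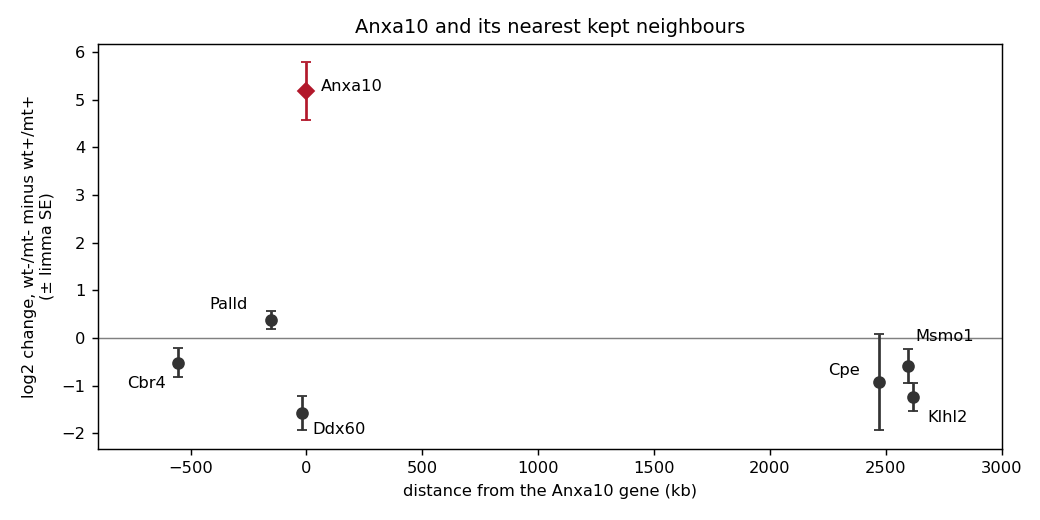
Log2 change in wt-/mt- against wt+/mt+ (y axis, with limma SE, n = 3 arrays per genotype) of Anxa10 and of the 3 nearest tested genes on each side, by distance from the Anxa10 gene in kb (x axis). Anxa10 stands at 5.18, and its neighbours lie between -1.57 and 0.37.

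Anxa4, an annexin of secretory epithelia, was the member besides Anxa10 that rose on loss of both alleles. Its brightest probe set, 1421223_a_at, read 9.17, 9.55 and 8.24 in wt-/mt-, against 6.80, 6.90 and 7.25 in wt+/mt+. All wt-/mt- arrays lay above all wt+/mt+ arrays, as for 22.8% of all tested genes. The change was 2.00 (SE 0.40, limma adjusted p = 0.0104), or 4.01-fold, in a comparison in which 7.56% of genes were called, 2.76% higher and 4.8% lower. Against wt+/mt-, where Anxa4 read 7.40, 7.29 and 7.22, it rose by 1.69 (SE 0.42, adjusted p = 0.0466), with 3.48% of genes called, 0.829% higher and 2.65% lower. Against wt-/mt+, where it read 7.09, 7.56 and 6.64, it rose by 1.89 (SE 0.40, adjusted p = 0.0136), with 8.06% of genes called, 2.78% higher and 5.27% lower. The 3 comparisons share the wt-/mt- arrays. The loss of 1 allele gave 0.32 in wt+/mt- against wt+/mt+ (adjusted p = 0.393) and 0.11 in wt-/mt+ against wt+/mt+ (adjusted p = 0.821), and the interaction of both losses was 1.58 (SE 0.46, adjusted p = 0.0918) and did not pass.

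The other Anxa4 probe sets went the same way to different extents. The second, 1424176_a_at, read 7.53, 8.09 and 6.30 in wt-/mt-, against 5.08, 5.39 and 5.37 in wt+/mt+, a change of 2.03 (adjusted p = 0.0101 over all probe sets). The third, 1457658_x_at, gave 0.68 (adjusted p = 0.0760) and did not pass. Leaving out wt-/mt- replicate 1 or 2 ended the call of the brightest probe set (1.91, adjusted p = 0.0626, and 1.72, adjusted p = 0.102), with the change still positive, and likewise against wt-/mt+ (1.80 and 1.61, adjusted p = 0.0771 and 0.122). Against wt+/mt- the call lay close to the threshold and ended without any 1 of 7 arrays, with adjusted p between 0.0557 and 0.221. Chromosome 6 medians of the wt-/mt- arrays were 0.06, 0.33 and 0.22, and with each chromosome centred per array the change against wt+/mt+ was called (adjusted p = 0.0110) and that against wt+/mt- was not (adjusted p = 0.0520).

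**Figure D3:**
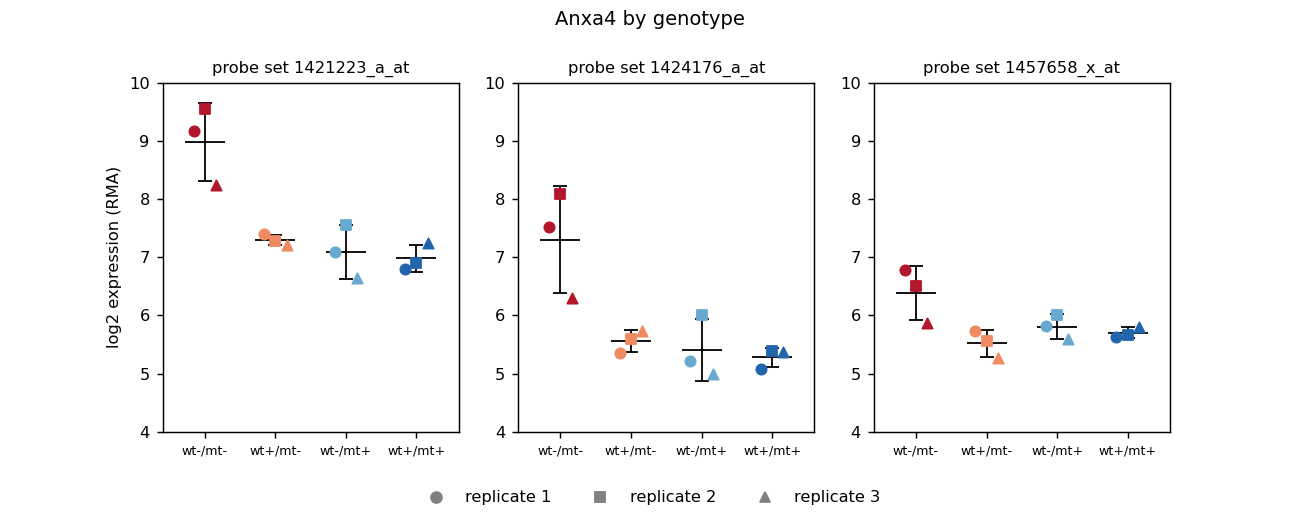
Log2 expression (RMA, y axis) of the 3 Anxa4 probe sets by genotype, with a point per array, the mean as a bar and the SD as whiskers (n = 3). For 1421223_a_at the wt-/mt- arrays lie between 8.24 and 9.55 and the other 9 between 6.64 and 7.56, and the separation is smallest for 1457658_x_at.

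In wt-/mt-, Anxa10 and Anxa4 were not highest on the same array. Replicate 1 had the highest Anxa10 (14.17) and replicate 2 the highest Anxa4 (9.55), while replicate 3 was lowest for both (11.18 and 8.24).

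Anxa7, whose product binds calcium and promotes membrane fusion, and Anxa6, an annexin with a longer core that links membranes to the cytoskeleton, had positive changes that did not pass. Anxa7 read 10.55, 10.66 and 10.43 in wt-/mt-, against 9.97, 10.08 and 10.30 in wt+/mt+. The arrays did not overlap, as for 22.8% of all tested genes in that direction, and the difference was 0.43 (SE 0.19, limma adjusted p = 0.185). Its other probe sets gave 0.30 and 0.19. With 1 shared spread, Anxa7 was called (adjusted p = 0.0237).

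Anxa6 read 7.43, 7.53 and 8.33 in wt-/mt-, against 6.50, 7.12 and 7.14 in wt+/mt+, a difference of 0.84 (SE 0.35, limma adjusted p = 0.158) that was called with 1 shared spread (adjusted p = 0.0343). In wt+/mt- it read 7.35, 7.30 and 7.83, a difference from wt+/mt+ of 0.57 (SE 0.20, adjusted p = 0.0893). The arrays of wt-/mt- and of wt+/mt- both lay above those of wt+/mt+, and they overlapped each other. Of all tested genes, 22.8% had wt-/mt- and 21.8% had wt+/mt- wholly above wt+/mt+. The other 3 Anxa6 probe sets gave between 0.14 and 0.42 for wt-/mt- against wt+/mt+.

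Anxa2, which links membranes to actin, was lowest in wt-/mt- by its brightest probe set and did not pass. This probe set read 10.74, 11.92 and 12.01 in wt-/mt-, against 12.44, 12.37 and 12.45 in wt-/mt+. Replicate 1, the array with the highest Anxa10, was the low one. The difference was -0.86 (SE 0.25, limma adjusted p = 0.0570), and it was called in 5 of 20 alternative settings, for example with no filter on dim genes (adjusted p = 0.0428). Against wt+/mt+, at 12.05, 12.02 and 12.29, the difference was -0.56 (adjusted p = 0.184), and without wt-/mt- replicate 1 it was -0.15. The second probe set, 1437692_x_at, averaged 6.68 in wt-/mt- and 6.83 in wt+/mt+ (-0.15, adjusted p = 0.432). The third, 1437691_at, was below the array's median on all arrays and went the other way. It averaged 3.94 in wt-/mt- and 3.70 in wt+/mt+ (0.24, adjusted p = 0.309), with no overlap, as for 22.8% of all tested genes in that direction.

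Anxa1, whose product limits inflammation, differed between the mt- arrays and within wt-/mt-. Its brightest probe set read 6.33, 8.71 and 6.11 in wt-/mt- cells, 6.48, 6.57 and 6.71 in wt+/mt- cells, 7.09, 7.32 and 7.16 in wt-/mt+ cells and 7.14, 7.12 and 7.09 in wt+/mt+ cells. The wt+/mt- arrays all lay below both mt+ genotypes. Of all tested genes, 11.4% had wt+/mt- wholly below wt+/mt+ and 14.2% had it wholly below wt-/mt+. In wt-/mt-, replicate 2 stood over 2 log2 units above the others. Neither wt+/mt- against wt+/mt+ (-0.53, SE 0.22, limma adjusted p = 0.144) nor wt-/mt- against wt+/mt+ (-0.069, SE 0.39, adjusted p = 0.929) passed. Without wt-/mt- replicate 2 both were called (-0.53, adjusted p = 0.0118, and -0.90, adjusted p = 0.0428). That array also had the highest Anxa4 and Anxa5. The other Anxa1 probe set, 1444016_at, lay below the array's median on all 12 arrays and read 4.85, 4.73 and 4.56 in wt-/mt-, so replicate 2 did not stand out there.

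Anxa5, the phosphatidylserine-binding annexin, read 10.34, 10.91 and 9.02 in wt-/mt- cells, 10.30, 10.38 and 10.01 in wt+/mt- cells, 9.96, 9.99 and 10.17 in wt-/mt+ cells and 9.88, 10.04 and 10.07 in wt+/mt+ cells. The wt-/mt- arrays held both the highest and the lowest value of all 12. The difference from wt+/mt+ was 0.092 (SE 0.30, limma adjusted p = 0.874), and without wt-/mt- replicate 3 it was 0.63. The median SD over genes in wt-/mt- was 0.261, and the brightest probe sets of Anxa10, Anxa1, Anxa5, Anxa2, Anxa4, Anxa6 and Anxa7 had SDs there of 1.53, 1.44, 0.97, 0.71, 0.67, 0.49 and 0.12.

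**Figure D4:**
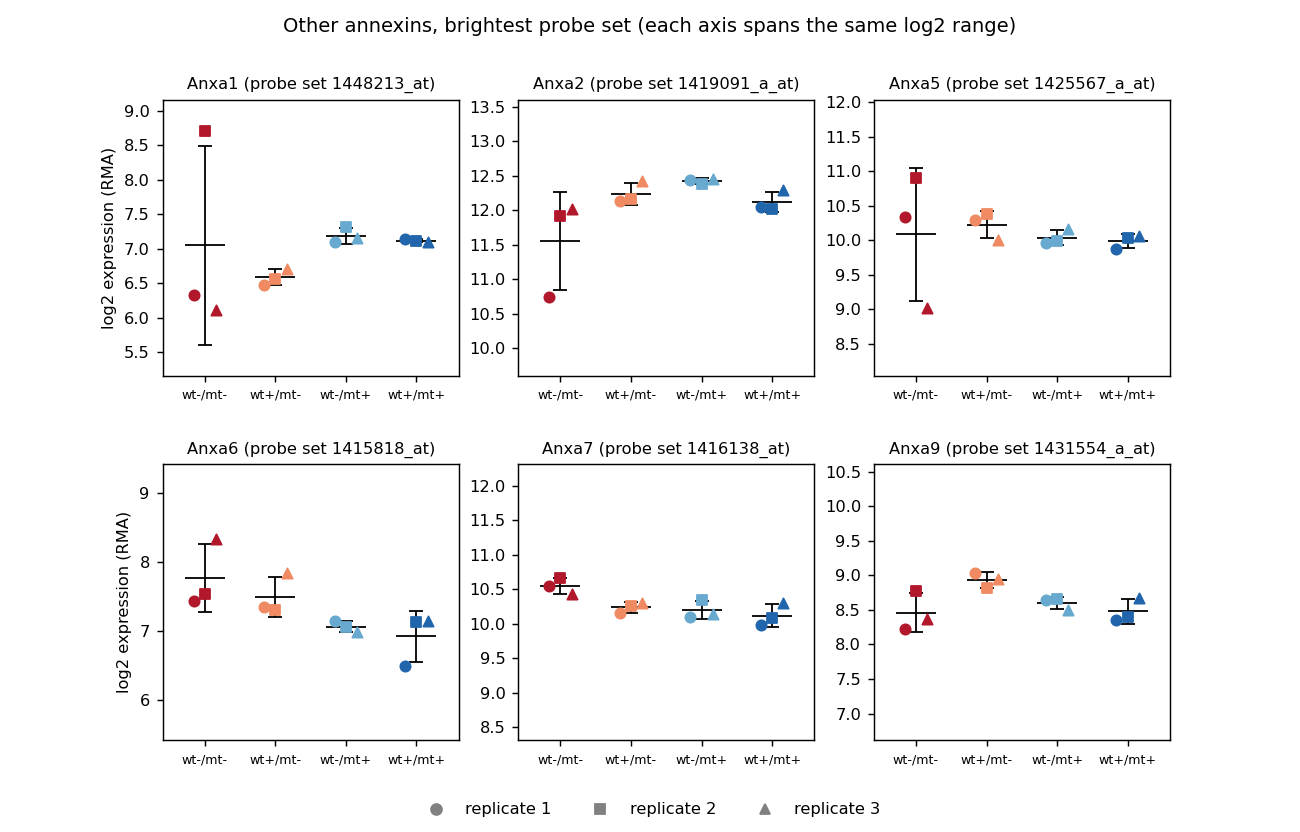
Log2 expression (RMA, y axis, each panel spanning the same range) of Anxa1, Anxa2, Anxa5, Anxa6, Anxa7 and Anxa9 by genotype, with a point per array, the mean as a bar and the SD as whiskers (n = 3). Anxa1 reads 8.71 on wt-/mt- replicate 2 and between 6.11 and 7.32 on the other 11 arrays, and Anxa2 reads 10.74 on wt-/mt- replicate 1.

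Anxa3, an annexin of neutrophils, lay below the array's median on all 12 arrays, between 4.03 and 4.64, and its mean was 4.23 in both wt-/mt- and wt+/mt+. The 3 annexins of the array outside the set were read for comparison. Anxa9, an annexin with altered calcium sites, read 9.04, 8.82 and 8.94 in wt+/mt-, against 8.36, 8.40 and 8.68 in wt+/mt+. The arrays did not overlap, as for 21.8% of all tested genes in that direction. Anxa9 rose by 0.46 (SE 0.11, limma adjusted p = 0.0321), where 8.29% of all genes were called, 5.93% higher. Calls in that comparison fell from 950 genes to 9 without wt+/mt- replicate 2, and Anxa9 was not followed there. In wt-/mt- it read 8.23, 8.77 and 8.37 and its change from wt+/mt+ did not pass (-0.020, adjusted p = 0.962). Anxa8 and Anxa13 lay below the array's median on all arrays.

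Over the 6 tested members other than Anxa10, wt-/mt- against wt+/mt+ had 1 rise (Anxa4) and 0 falls, beside 2.76% of all genes called higher and 4.8% lower, with a median change of 0.26, where the median of all genes was 0.05. At an unadjusted p under 0.05, which 25.5% of all genes reached, Anxa6 and Anxa7 were also higher and Anxa2 was lower. Loss of the wild-type allele with T24P present (wt-/mt+ against wt+/mt+) called 0 of 7 members and 0.166% of all genes, 0.105% higher and 0.0611% lower, with an unadjusted p under 0.05 for Anxa2 alone (0.30, limma adjusted p = 0.295) and for 14.6% of all genes. Loss of T24P with the wild-type allele present (wt+/mt- against wt+/mt+) called Anxa10, 0 of the other 6 members and 8.29% of all genes. The changes of these 6 lay between -0.53 and 0.57, with an unadjusted p under 0.05 for Anxa1, for Anxa6 and for 26% of all genes. The interaction called 0 of these 6 members, where 3.14% of genes were called, 0.698% higher and 2.44% lower, with an unadjusted p under 0.05 for Anxa2, for Anxa4 and for 17.6% of all genes.

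**Figure D5:**
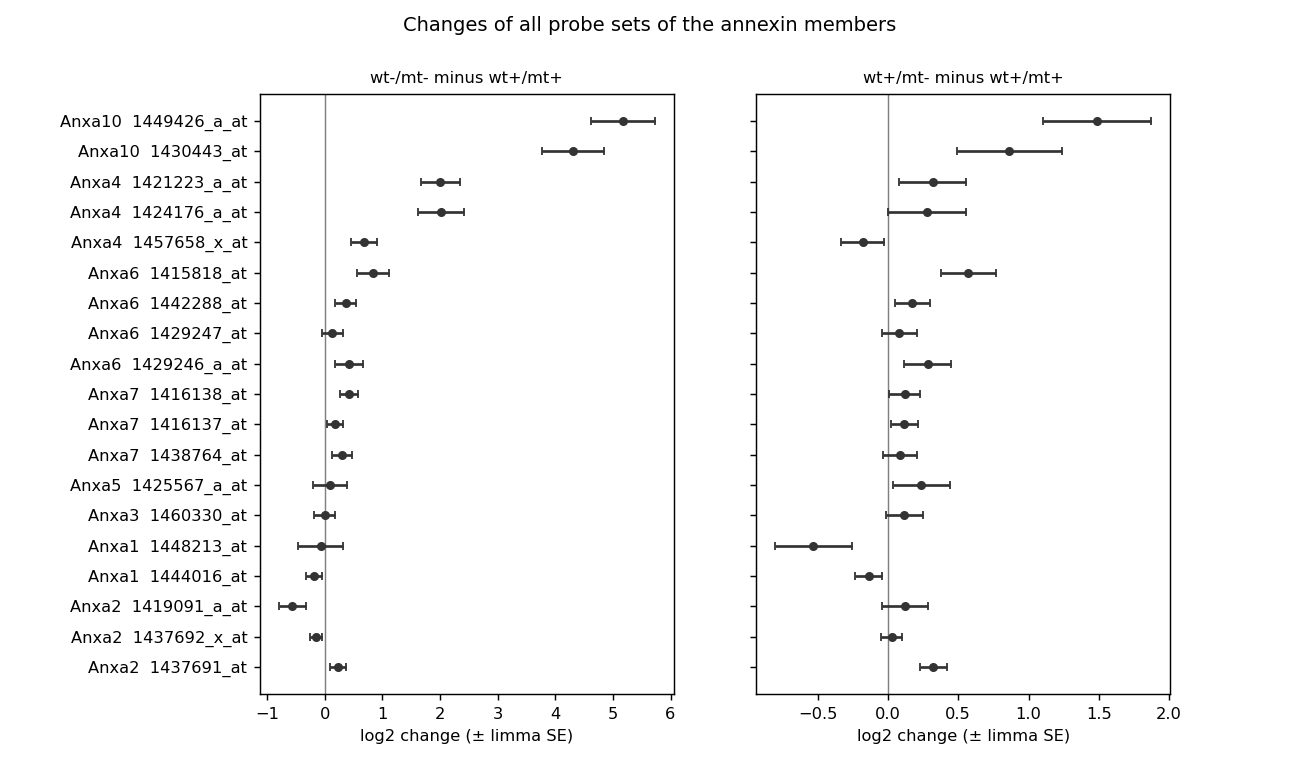
Log2 change with limma SE (x axes, of different range) of all 19 probe sets of the 8 annexins, for wt-/mt- against wt+/mt+ on the left and wt+/mt- against wt+/mt+ on the right (n = 3 arrays per genotype, fit over all probe sets). On the left both Anxa10 probe sets lie above 4 and the next highest are 2 of Anxa4, and on the right 1449426_a_at of Anxa10 stands at 1.49.

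Genes that work with annexins were read from 6 lists, whose counts for wt-/mt- against wt+/mt+ stand beside 7.56% of all genes called (2.76% higher, 4.8% lower) and 25.5% at an unadjusted p under 0.05. The S100 list had 13 of its 15 entries on the array and 5 tested, and 0 were called by limma in any comparison, with 1 at an unadjusted p under 0.05 in wt-/mt- against wt+/mt+. S100a6, a partner of several annexins, averaged 11.34 in wt-/mt- and 12.42 in wt+/mt+, a difference of -1.08 (SE 0.37, limma adjusted p = 0.0948). Of 12 tested membrane repair genes, 1 rose in wt-/mt- against wt+/mt+ and 0 fell, with a median of 0.10. This was Ehd2, a membrane-remodelling ATPase of caveolae, at 10.16 in wt-/mt- cells and 9.05 in wt+/mt+ cells (1.11, SE 0.21, adjusted p = 0.00926). Of 9 scramblases and flippases, which set the side of the membrane that holds phosphatidylserine, 1 fell and 0 rose. It was the flippase Atp8a1, at 9.41 in wt-/mt- cells and 10.48 in wt+/mt+ cells (-1.08, SE 0.27, adjusted p = 0.0316).

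The list for recognition of phosphatidylserine had 7 tested genes. Among them, Havcr1, a receptor for phosphatidylserine, was listed with its high level in wt-/mt- already known, so it is described with no test. It stood at 10.56 in wt-/mt- cells, 7.55 in wt+/mt- cells, 6.09 in wt-/mt+ cells and 6.66 in wt+/mt+ cells (3.90 for wt-/mt- minus wt+/mt+, SE 0.50), and its order over the genotypes was that of Anxa10. Of the other 6 genes of that list, 0 were called by limma in wt-/mt- against wt+/mt+, with 1 at an unadjusted p under 0.05. By limma 0 of 4 tested genes of plasminogen activation and annexin receptors and 0 of 9 tested C2 domain genes were called in wt-/mt- against wt+/mt+, with 0 and 3 at an unadjusted p under 0.05, beside the 25.5% of all genes. In wt-/mt- against wt-/mt+, where 8.06% of all genes were called (5.27% lower), 1 of 9 C2 domain genes fell and 0 rose. This was Esyt2, a tether between the endoplasmic reticulum and the plasma membrane, which fell by 0.95 on the log2 scale (SE 0.18, limma adjusted p = 0.00796).

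Since annexins are abundant in other cell types, markers of those types were read beside them. The mean over 11 myeloid markers lay between 6.04 and 6.14 in wt-/mt- cells, between 5.97 and 6.16 in wt+/mt- cells, between 5.79 and 5.92 in wt-/mt+ cells and between 5.81 and 5.91 in wt+/mt+ cells, so it was higher on the mt- arrays. Cd68 alone averaged 8.04, 7.18, 5.73 and 6.11 in these genotypes, so 1 gene made up a large part of this small shift. In wt-/mt- against wt+/mt+ the median change of the 4 tested myeloid markers was 0.18, where that of all genes was 0.05. Of the 11 myeloid markers, 3 lay above the array's median on every array (Adgre1, Csf1r and Fcgr1). Of 4 tested myeloid markers, 1 rose and 0 fell in wt-/mt- against wt-/mt+, where 8.06% of all genes were called. This was Cd68, a lysosomal protein of macrophages, which averaged 8.04 in wt-/mt- and 5.73 in wt-/mt+ (2.31, SE 0.59, limma adjusted p = 0.0334). Its wt-/mt+ mean lay below all array medians (6.08 to 6.25), so it was tested largely because of the mt- arrays, where it was high. The call is therefore not independent of the filter. The mean over 11 epithelial markers lay between 5.87 and 5.98 in wt-/mt- and between 5.73 and 5.83 in wt+/mt+. Of the 11, Epcam and Tff1 lay above the array's median on every array. In wt-/mt- against wt+/mt+, where 7.56% of all genes were called, 0 of 4 tested myeloid and 0 of 3 tested epithelial markers were called. Of the 3 epithelial markers, 1 rose and 0 fell in wt+/mt- against wt+/mt+, with a list median of 0.05. There 8.29% of all genes were called, 5.93% higher. The called epithelial marker was Muc5ac, a gastric mucin, which averaged 6.85 in wt+/mt- and 6.21 in wt+/mt+ (0.64, SE 0.11, limma adjusted p = 0.0107). It averaged 6.78 in wt-/mt- and 6.25 in wt-/mt+, and both mt+ means lay close to the array medians (6.08 to 6.25). Calls in wt+/mt- against wt+/mt+ fell from 950 genes to 9 without wt+/mt- replicate 2, and Muc5ac was not followed there. Means over 9 stromal markers were between 5.49 and 5.70 in wt-/mt- and between 5.41 and 5.47 in wt+/mt+, with 0 markers above the array's median on every array. For 8 T cell markers the mean lay between 5.78 and 5.85 in wt-/mt- and between 5.75 and 5.86 in wt+/mt+, and for 3 erythroid markers between 4.98 and 5.16 and between 4.91 and 5.15. Over the 8 B cell markers it lay between 10.80 and 11.75 in wt-/mt- and between 11.68 and 11.79 in wt+/mt+. In that comparison 1 of these 8 fell and 0 rose, with a list median of -0.47 (all genes 0.05), where 4.8% of all genes were called lower. This was the B cell receptor gene Cd79b, which fell by 0.96 on the log2 scale (SE 0.22, limma adjusted p = 0.0217). Against wt+/mt- 1 of the 8 fell and 0 rose, with a list median of -0.43 (all genes -0.01), where 2.65% of all genes were called lower. This was Cd22, which fell by 1.05 on the log2 scale (SE 0.26, limma adjusted p = 0.0488). Its p lay close to the threshold, and Cd22 was not followed with arrays left out. The part of these markers in the annexin changes was not tested.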

How the data were processed

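RNA was measured on 12 Affymetrix mouse arrays of an edited mouse lymphoma line after biotin labelling with a 3' IVT kit, per the labels' protocols. The authors deposited 1 log2 value per probe set and array, and the submitters' processing notes name RMA, without a version. Since RMA makes the arrays' distributions alike, it largely removes shifts that most genes share. The log base was taken from the range, 3.09 to 15.57. Array medians lay between 6.08 and 6.25, and 0 pairs of arrays were identical. Scanner files were not used here, so detection calls were not read, and the number of arrays limits the precision.

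Gene names came from the platform annotation in GEO, updated through RefSeq (GRCm38.p6). Of 45101 probe sets, 34958 had 1 gene, 932 several and 9211 none named. Genes took their brightest probe set, and 11458 of 18194 passed the filter. All 12 arrays entered 1 fit in limma 3.58.1 (R 4.3.3), with a mean and an array weight for each genotype and then eBayes. A gene was called when its p, adjusted by Benjamini and Hochberg across all tested genes, was under 0.05. The weights were 0.253 for wt-/mt-, 1.08 for wt+/mt-, 1.68 for wt-/mt+ and 2.18 for wt+/mt+. Tested on simulated data with 200 of 11458 genes changed in wt-/mt-, the weighted fit called 124 of them and 6 unchanged genes for wt-/mt- against wt+/mt+, and a shared spread called 150 and 24. For wt+/mt- against wt+/mt+ the balance of false calls ran the other way. With the changes in wt+/mt- the weighted fit called 145 changed and 6 unchanged genes and a shared spread 130 and 2, and with the changes in wt+/mt+ the counts were 158 and 12, and 138 and 1. The simulated noise was independent between arrays and had 1 spread factor per genotype, as the weighted fit assumes. These counts are therefore no independent support for the weights. Probe sets were fitted the same way over all 34958. Errors of changes are limma's SE, and errors of levels are SD.

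The members, the lists and the weighted fit were chosen with earlier results of these data known. The motifs and the 2 printed promoters were chosen after the sequences and values had been seen. Named genes are all members, Foxo1, other annexins of the array, up to 4 called genes per list and comparison, the 5 genes most like Anxa10 over the arrays and the 3 nearest tested genes on each side of it. S100a6, which was not called, was named after its values were seen. Alternatives were a shared spread, no filter, the mean over probe sets, 3 scalings, the actin ratio as a covariate, and leaving out each array.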

Additional observations from a re-analysis of the deposited data

How the results depend on the processing

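No paired analysis was possible because the labels give no replicate number shared between genotypes. The change of Anxa10 in wt-/mt- against wt+/mt+ lay between 4.33 and 5.83 in all 20 alternatives, and no called change of a member turned its sign. For the members, tested without Anxa10 where wt-/mt- entered, 1 was called in wt-/mt- against wt+/mt+, against wt+/mt- and against wt-/mt+, in wt+/mt- against wt+/mt+ and in wt-/mt+ against wt+/mt- (Anxa10 in the last 2), and 0 in wt-/mt+ against wt+/mt+ and in the interaction. With 1 shared spread the counts were 3 in wt-/mt- against wt+/mt+, 2 against wt-/mt+, and 0 in wt+/mt- against wt+/mt+ and in wt-/mt+ against wt+/mt-. Members called in wt-/mt- against wt-/mt+ were 2 with no filter, with median-centred arrays and with centring per chromosome. Against wt+/mt- they were 0 with centring per chromosome and with the actin covariate.

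Leaving out 1 array gave 0 to 1 members in wt-/mt- against wt+/mt+ and against wt+/mt-, 0 to 2 against wt-/mt+, 0 to 2 in wt+/mt- against wt+/mt+ and in wt-/mt+ against wt+/mt-, 0 to 0 in wt-/mt+ against wt+/mt+, and 0 to 1 in the interaction. Without wt+/mt- replicates 1 and 2, an alternative chosen after seeing the data that leaves 1 array there, assumed to vary like the others under a shared spread, 2 members were called in wt-/mt- against wt+/mt+ and 0 in wt-/mt- against wt+/mt-, wt+/mt- against wt+/mt+ and wt-/mt+ against wt+/mt-.

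Over all genes, 866 were called in wt-/mt- against wt+/mt+, 2535 with a shared spread, 1515 with no filter and 2034 without those 2 arrays, and 317 to 1051 leaving out 1 array. Against wt+/mt- 399 were called, with 1670, 641 and 117 under the same 3 and 175 to 783, and against wt-/mt+ 923, with 2386, 1393 and 1928 and 383 to 935. In wt-/mt+ against wt+/mt+ 19 were called, 0 with a shared spread, 6 with no filter, 9 with median-centred arrays, 9 with the actin covariate, 0 without those 2 arrays and 4 to 52 leaving out 1. In wt+/mt- against wt+/mt+ 950 were called, 21 with a shared spread, 2 without those 2 arrays and 9 to 1430 leaving out 1. In wt-/mt+ against wt+/mt- 835 were called, 10 with a shared spread, 199 with the actin covariate, 2 without those 2 arrays and 5 to 1922 leaving out 1. The interaction called 360, 56 without those 2 arrays and 177 to 400 leaving out 1. The cause of these changes was not tested.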
